A study of Mus musculus with 46 samples.

Results

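Hippocampal OLM interneurons (oriens-lacunosum moleculare cells) were divided by their content of Npy, the gene for neuropeptide Y. Cells with at least 10 Npy reads per 1000000 assigned reads (CPM) are called Npy-expressing here, and cells below 10 CPM are called Npy-lacking. Of the 46 cells of the series, 33 were Npy-expressing and 13 were Npy-lacking. Each library held the cytosol of 1 mouse neuron of postnatal day 21 to 30, drawn into a patch pipette. Each cell is given as OLM and as having passed quality control. The 2 Cre lines supplied the cells, 23 from the Htr3a Cre driver line and 23 from the Sst Cre driver line. No treatment is given for any cell. The split itself rests on measured Npy and not on a label, so Npy levels are a description. The labels name no animal, so each side counts as 1 sample. No test between the sides was made, SDs are between cells, and intervals cover counting error only.

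OLM cells have their bodies in stratum oriens and send axons to stratum lacunosum-moleculare, where they inhibit the distal dendrites of pyramidal cells. They use GABA and the peptide somatostatin. Neuropeptide Y is stored in dense-core vesicles and acts on G protein-coupled Y receptors that mostly dampen transmitter release. In the hippocampus it is best known from neurogliaform and Ivy cells, and it is also found in part of the somatostatin interneurons. A cell with no Npy reads may still hold transcripts that were missed, since a pipette takes up part of a cell's RNA.

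Npy (ENSMUSG00000029819, chromosome 6, 49822710 to 49829507, plus strand, GRCm38) spanned a wide range in the Npy-expressing cells. Their levels had a lowest value of 12.7, a median of 260 and a highest value of 11796 CPM. In the Npy-lacking cells the highest level was 0.884 CPM and the median was 0. The cells just inside the threshold held 12.7 and 14.05 CPM, and those just outside it held 0.884 and 0.780 CPM, so a threshold of 1 CPM gave the same sides. Of the Npy-lacking cells, 9 had no Npy read. The other 4 were all of the Htr3a line and had 7, 3, 3 and 1 reads. In the Npy-expressing cells a second gap lay between 267 and 1017 CPM, with 15 cells above it.

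Both driver lines held both kinds of cell. In the Htr3a line, 17 of 23 cells were Npy-expressing (73.9%, Clopper-Pearson 95% interval 51.6 to 89.8). In the Sst line it was 16 of 23 (69.6%, 47.1 to 86.8), an interval that covers most of the first. Each line had 12 cells at 100 CPM or more, and 7 and 8 cells at 1000 CPM or more. The Npy-expressing Htr3a-line cells had a median of 188 CPM (12.7 to 5868), and the Npy-expressing Sst-line cells had 642 CPM (19.3 to 11796), ranges that overlap. Htr3a-line cells made up 51.5% (33.5 to 69.2) of the Npy-expressing and 46.2% (19.2 to 74.9) of the Npy-lacking cells.

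**Figure D1:**
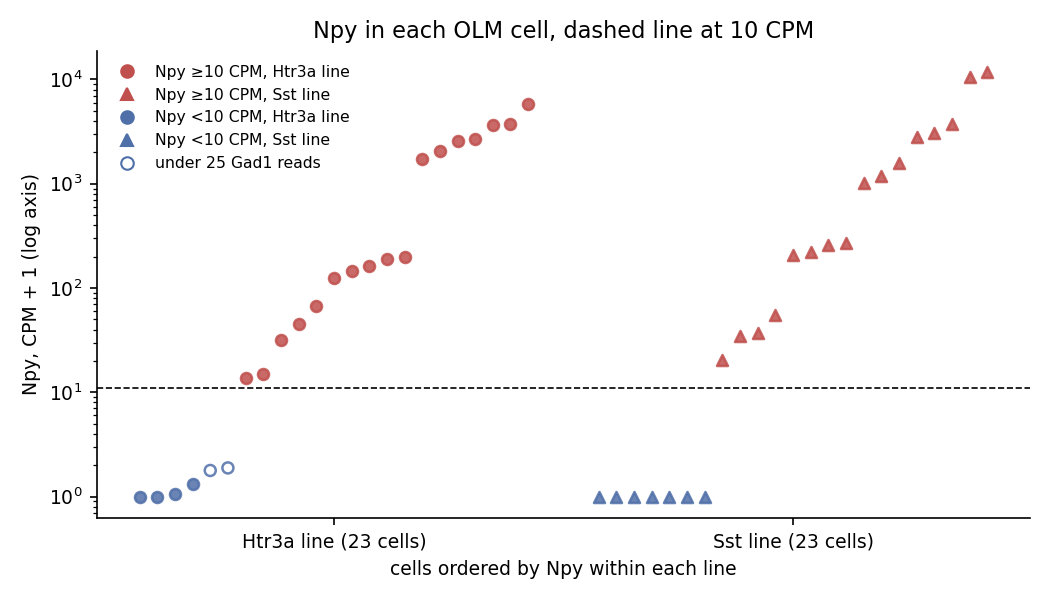
Npy level of each of the 46 cells, as CPM + 1 on a log axis, ordered within each driver line. The dashed line is the 10 CPM threshold, red points are Npy-expressing cells, blue points Npy-lacking cells, and open points the 2 cells with under 25 Gad1 reads; no cell lies between 0.884 and 12.7 CPM.

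Depth and 2 libraries low in Gad1 moved with the split. Npy-expressing cells had a median of 16650272 assigned reads (5639490 to 26136222), against 9810399 (3391829 to 31386369) in Npy-lacking cells. A median of 7108 genes had at least 1 read in Npy-expressing cells (3225 to 12693) and 5920 in Npy-lacking cells (4064 to 9741). The same order was seen within the Htr3a line (8203 against 7267.5) and within the Sst line (6867 against 5478), but without Htr3a line replicates 4 and 20 the Npy-lacking median of the Htr3a line was the higher one, at 8419.5 genes. With every cell thinned to 3000000 reads the medians were 6802 and 5838 genes. Moving the Npy threshold to 100 CPM turned the difference to -37.5 genes. Htr3a line replicates 4 and 20, both Npy-lacking, stood apart with 4 and 24 reads of Gad1, the main GABA-synthesising enzyme, and with 22 and 18 reads of Crhbp. Other genes of GABA signalling were not low in both. Replicate 4 held 555 CPM of Gad2, the second GABA-synthesising enzyme, and replicate 20 held 1.47 CPM, against 122 to 1348 CPM in the other Npy-lacking cells. Slc32a1, the vesicular GABA transporter, was at 7.14 and 438 CPM, against 0.0652 to 38.7 CPM in those cells. The 2 libraries had 4337 and 4064 genes with reads, and without them the Npy-lacking median was 6366 genes. Among the Npy-expressing cells, Htr3a line replicate 10 stood apart with 12693 genes, 10918 CPM of vessel and blood genes, 23549 CPM of mitochondrially encoded genes and 121 CPM of Gad1, the lowest Gad1 level on that side. Without it, 2453 genes were past 2-fold higher and 507 lower, against 2523 and 458 with it, on the scale defined below.

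**Figure D2:**
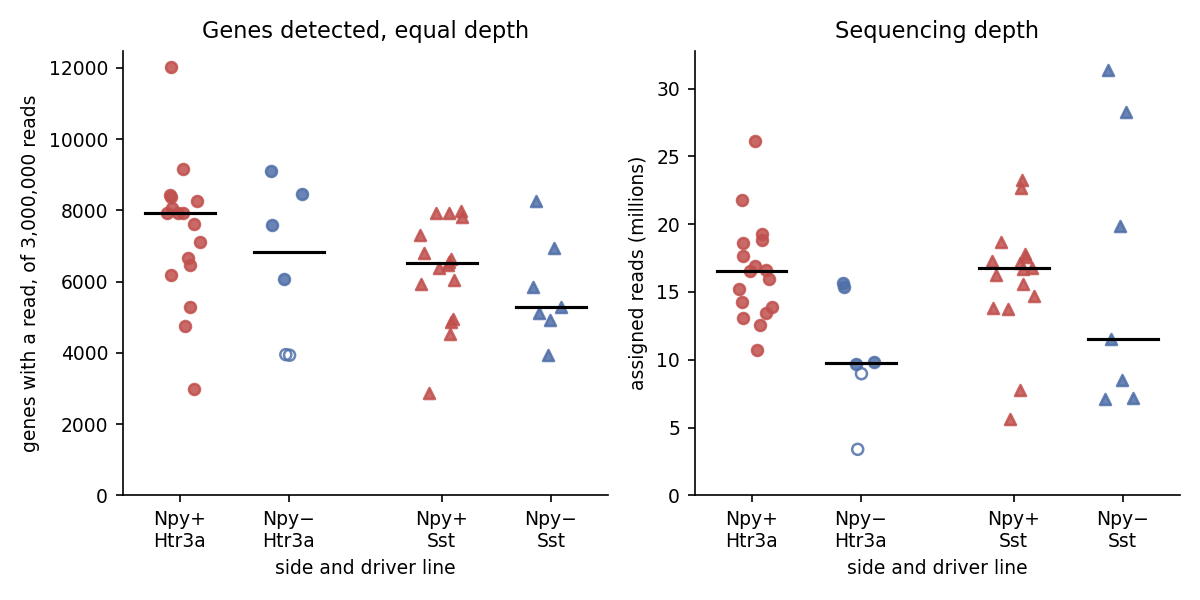
Left, genes with at least 1 read after thinning each cell to 3000000 reads, and right, assigned reads in units of 1000000, for Npy-expressing (Npy+) and Npy-lacking (Npy−) cells of each line. Points are cells, bars are medians and open points are Htr3a line replicates 4 and 20; with all cells the Npy-expressing median is the higher one in both lines, without the open points the thinned Htr3a-line medians are 7920 and 8034.5 genes, and the ranges overlap.

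Most other genes were read at a higher mean level in the Npy-expressing cells. Differences below are means of log2(CPM + 1) over Npy-expressing cells minus means over Npy-lacking cells, and a difference of at least 1, a 2-fold change on this scale, is called past 2-fold. Among 11195 genes with a mean of at least 0.5 over all cells, 70.2% had a positive difference and the median was 0.40. Past 2-fold were 2523 genes (22.5%) upward and 458 genes (4.09%) downward. With size factors from DESeq2 (poscounts) in place of totals, 1897 genes were past 2-fold upward and 709 downward, with a median of 0.24. Within the Htr3a line the shares were 37.7% and 7.64%, and within the Sst line 22.7% and 15.2%. Without Htr3a line replicates 4 and 20 they were 16.8% and 7.94%, with a median of 0.16. Adjusted linearly for driver line and genes detected, the median was 0.15. A difference larger than the pooled SD between cells was found for 61 genes (0.545%), so for nearly every gene the cells of 1 side varied more than the sides differed. With every cell thinned to 3000000 reads, 2548 genes were past 2-fold upward and 461 downward and the median was 0.40, close to the values at full depth. Each gene is read against this upward shift, and a list against the shares of 70.2% higher and 22.5% past 2-fold higher.

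The gene list of OLM identity split in both directions, with Pnoc far from the rest. Of its 8 members, 5 were higher and 3 lower in Npy-expressing cells, 3 and 2 of them past 2-fold, and the median difference was 0.49 against 0.40 over all genes. Pnoc encodes prepronociceptin, the precursor of the opioid-like peptide nociceptin (ENSMUSG00000045731, chromosome 14, 65400673 to 65425472, minus strand). In Npy-expressing cells it had a lowest level of 0, a median of 0 and a highest level of 469 CPM. In Npy-lacking cells these were 0, 165 and 1626 CPM. The ranges overlap, but reads were present in 16 of 33 Npy-expressing (48.5%, 30.8 to 66.5) and 11 of 13 Npy-lacking cells (84.6%, 54.5 to 98.1).

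The mean Pnoc level was 2.78 ± 3.26 (SD, 33 cells) in Npy-expressing and 5.83 ± 3.53 (13 cells) in Npy-lacking cells, a difference of -3.06. That difference is smaller than the pooled SD between cells of 3.34. It went the other way from the shift of all genes, and it was -2.70 within the Htr3a line and -3.45 within the Sst line. It was -2.48 without Htr3a line replicates 4 and 20 (-1.14 within the Htr3a line) and -3.34 after adjustment for line and genes detected. Leaving out any 1 cell kept it between -3.54 and -2.65. With the reads of each side pooled, Pnoc took 50.2 CPM (exact Poisson interval 49.6 to 50.8) and 209 CPM (207 to 212), and Sst line replicate 1 alone gave 48.1% of the 36994 Pnoc reads of the Npy-lacking cells. With each cell weighted equally the mean levels were 52.9 and 270.0 CPM, and Htr3a line replicate 20 gave 46.3% of the latter.

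Pnoc reads were rarest in the cells with the most Npy. Of the 15 cells with at least 1000 CPM of Npy, 2 had Pnoc reads and 1 reached 10 CPM of Pnoc. Of the 18 cells with 10 to 1000 CPM of Npy, 14 had Pnoc reads, 13 reached 10 CPM and the median was 50.6 CPM. Of the 13 Npy-lacking cells, 11 had Pnoc reads and 10 reached 10 CPM. The range boundary of 1000 CPM was chosen after the values were seen. Spearman's rho between Npy and Pnoc was -0.61 over 46 cells, and -0.57 within each line of 23 cells, as a description of cells that differ in depth. Oprl1, the nociceptin receptor, was read in 25 of 33 and 7 of 13 cells and differed by 1.22, with 0.11 within the Htr3a line (-0.97 without replicates 4 and 20) and 2.19 within the Sst line.

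**Figure D3:**
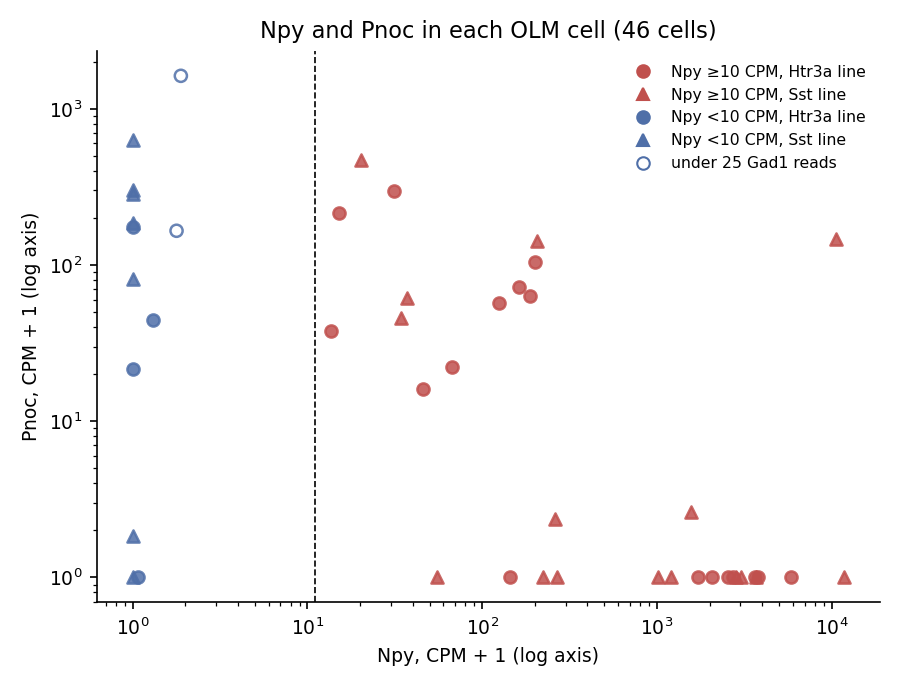
Npy (horizontal) and Pnoc (vertical) in each of the 46 cells, as CPM + 1 on log axes, with the dashed line at 10 CPM of Npy. Circles are Htr3a-line cells, triangles Sst-line cells and open points the 2 cells with under 25 Gad1 reads; 13 of the 15 cells above 1000 CPM of Npy lie at 0 Pnoc.

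The other OLM genes were present on both sides. Sst, the somatostatin gene, was read in all 46 cells, with 1848 to 101725 CPM (median 14016) in Npy-expressing and 1274 to 103853 CPM (median 9503) in Npy-lacking cells. Its difference of 0.36 was -0.47 within the Htr3a line and 0.99 within the Sst line, so its sign differed between the lines. Crhbp, a secreted protein that binds corticotropin-releasing hormone, had a median of 1029 CPM (29.6 to 4795) in Npy-expressing and 506 CPM (2.45 to 1762) in Npy-lacking cells. The Crhbp difference of 1.84 was 0.79 without Htr3a line replicates 4 and 20. Elfn1, a postsynaptic adhesion protein that sets the facilitation of inputs to OLM cells, was read in 27 of 33 and 6 of 13 cells and differed by 1.54 (2.36 and 0.69 within the lines). Grm7, a presynaptic glutamate receptor that binds Elfn1, differed by 1.35 and was read in 19 of 33 and 6 of 13 cells.

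Chrna2, the nicotinic receptor subunit used to mark OLM cells, was read in 9 of 33 Npy-expressing cells (27.3%, 13.3 to 45.5) and 7 of 13 Npy-lacking cells (53.8%, 25.1 to 80.8), intervals that overlap. Its difference was -0.74, with 0.95 within the Htr3a line and -2.37 within the Sst line. Reln, an extracellular matrix protein, was read in 45 of 46 cells and differed by 0.62.

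Peptides other than Npy and Pnoc were mostly sparse. Of 22 listed neuropeptide genes, 10 reached the minimum level, 3 were past 2-fold higher and 1, Pnoc, past 2-fold lower, with a median of 0.37. Cort, which encodes the somatostatin relative cortistatin, was read in 15 of 33 Npy-expressing cells (45.5%, 28.1 to 63.6) but in 1 of 13 Npy-lacking cells (7.69%, 0.195 to 36.0). Its highest levels were 122 and 63.7 CPM, and the difference was 1.30 (1.66 and 1.02 within the lines). Penk, the enkephalin precursor, was read in 6 and 1 cells, and all 6 Npy-expressing cells with reads exceeded 10 CPM while the Npy-lacking one held 0.446 CPM. Nppc, the precursor of C-type natriuretic peptide, differed by 1.19 but by -0.16 within the Htr3a line. Pdyn, Nmb and Tac1, precursors of dynorphin, neuromedin B and substance P, were read in 3, 4 and 2 Npy-expressing cells and in none of the 13 others, a count of 0 that allows a share of up to 23.1% (3 counts over 13 cells). Tac2, the neurokinin B precursor, was read in 5 and 2 cells, and Htr3a line replicate 17 held 90.9% of its summed CPM in Npy-expressing cells.

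Receptors for neuropeptide Y gave little signal on either side. Npy1r, the Y1 receptor, was read in 9 of 33 Npy-expressing cells (27.3%, 13.3 to 45.5) and 3 of 13 Npy-lacking cells (23.1%, 5.04 to 53.8). Its difference was 0.79, with 2.13 within the Htr3a line and -0.51 within the Sst line. Npy5r, the Y5 receptor, was read in 3 and 2 cells. Npy2r, Npy4r and Npy6r, the other Y receptors, and Pyy and Ppy, the related peptides, had no read in any of the 46 cells. The peptidase genes Dpp4 and Fap, whose products can trim neuropeptide Y, were read in 2 and 1 cells in all.

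Genes of dense-core granules and peptide processing had a median near that of all genes. Of 20 members above the minimum, 14 were higher and 6 past 2-fold higher, with a median of 0.31 that turned to -0.15 without Htr3a line replicates 4 and 20. Syt4, a vesicle synaptotagmin, differed by 1.69, Scg3, a granin that sorts peptide cargo, by 1.61 and Cadps, which primes dense-core vesicles, by 1.52. Each of these was positive within both lines, although Scg3 was at 0.18 within the Htr3a line without replicates 4 and 20. Cadps was read in 33 of 33 and 12 of 13 cells, with medians of 198 and 85.3 CPM. Cpd, a carboxypeptidase of peptide maturation, differed by 1.26 but by -0.35 at the 100 CPM threshold.

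Transcription factors that mark the embryonic origin of interneurons differed in both directions. Nr2f2, or COUP-TFII, a factor of the caudal ganglionic eminence (CGE), had a median of 23.8 CPM (0 to 522) in Npy-expressing and 0 (0 to 70.9) in Npy-lacking cells. It reached 10 CPM in 17 of 33 and 2 of 13 cells, and its mean of 3.42 ± 3.05 against 0.78 ± 1.89 gave a difference of 2.64. The Nr2f2 difference was 3.59 within the Htr3a line, 1.65 within the Sst line and 2.51 without Htr3a line replicates 4 and 20. Npas1, another gene of the CGE list and a transcriptional repressor, went the other way by -1.86. It was read in 25 of 33 Npy-expressing cells and in 13 of 13 Npy-lacking cells, and the contrast lay mainly within the Sst line (-3.32 against -0.28 within the Htr3a line). All 7 Npy-lacking Sst-line cells held 386 to 722 CPM of Npas1, whereas 5 of 16 Npy-expressing Sst-line cells had no read.

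Lhx6, which specifies interneurons of the medial ganglionic eminence (MGE), differed by 2.01 in the mean but by -0.11 as a log2 ratio of the mean CPM of each side. In Npy-expressing cells its median was 114 CPM (0 to 360) and in Npy-lacking cells 58.8 CPM (0 to 512). The Npy-lacking Sst-line cells had a median of 0.141 CPM, against 127 CPM in the Npy-expressing cells of that line, while the Htr3a-line medians were 137 and 114 CPM. The Lhx6 difference within the Htr3a line was 0.20, and -0.81 without replicates 4 and 20. All 6 MGE genes above the minimum were higher in Npy-expressing cells, with a median of 0.78, and 1 was past 2-fold. Of 5 CGE genes above it, 2 were past 2-fold higher and 1 past 2-fold lower. Dlx1, a transcription factor of forebrain GABA neurons, differed by 1.90 with 2.0 and 1.81 within the lines, and with 0.36 within the Htr3a line without replicates 4 and 20. Dlx2 differed by 1.25 but by 0.74 without both and by -0.05 as a ratio of mean CPM.

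**Figure D4:**
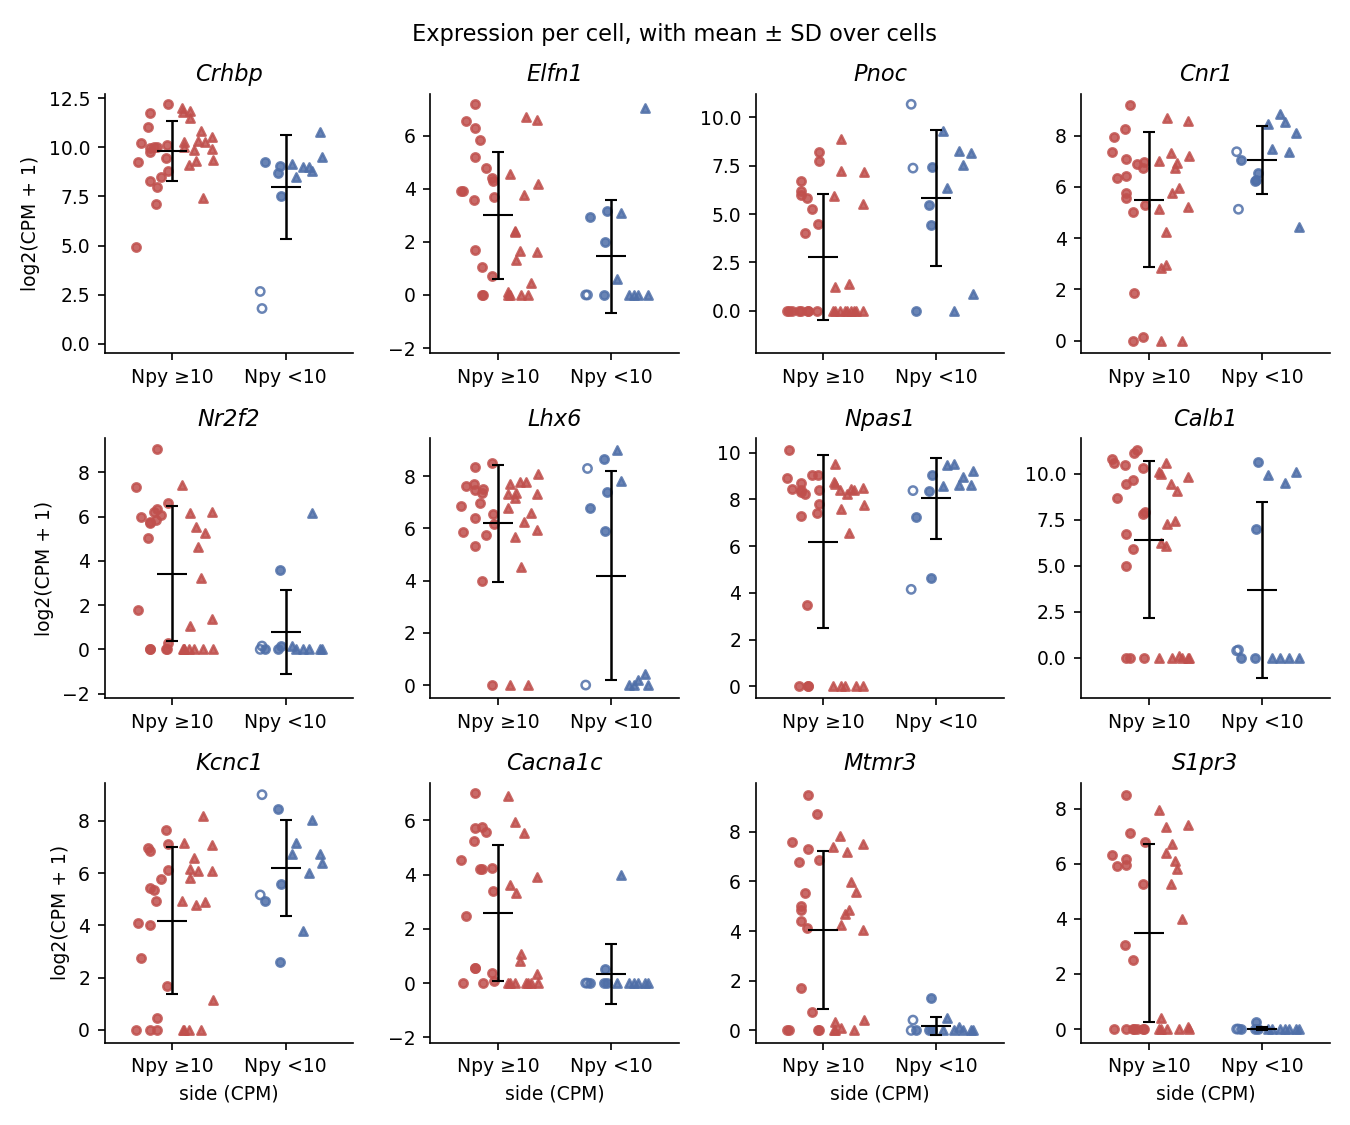
Log2(CPM + 1) of 12 genes in each cell, with the mean and SD over cells in black; circles are Htr3a-line cells, triangles Sst-line cells, red Npy-expressing, blue Npy-lacking, and open points Htr3a line replicates 4 and 20. Pnoc, Cnr1, Npas1 and Kcnc1 have the lower mean in Npy-expressing cells, and Mtmr3 and S1pr3 stay below 2 CPM in all 13 Npy-lacking cells.

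Markers of other interneuron classes were read on both sides. Gad1 differed by 1.82, by 1.17 without Htr3a line replicate 4 and by 0.63 without replicates 4 and 20. Gad2 differed by 0.996 and by 0.40 without both. Without both, the differences within the Htr3a line were 1.31 for Gad1 and 0.94 for Gad2. Of 8 basket and bistratified genes above the minimum, 5 were higher and 3 lower, with 1 past 2-fold higher and 2 past 2-fold lower. Their median was 0.23, with -0.11 within the Htr3a line and -0.10 within the Sst line. Pvalb, a member outside the naming rule, was read in 12 of 33 and 4 of 13 cells. It differed by 0.28, with -1.72 within the Htr3a and 2.24 within the Sst line. Kcnc1, a fast delayed-rectifier potassium channel (Kv3.1), was read in 26 of 33 Npy-expressing cells with a median of 29.8 CPM (0 to 292). It was read in 13 of 13 Npy-lacking cells with a median of 82.9 CPM (4.98 to 510), and its difference of -2.01 was -1.88 and -2.10 within the lines. Cnr1, the CB1 cannabinoid receptor, had a median of 81.5 CPM (0 to 583) against 164 CPM (20.9 to 461) and differed by -1.56, with -0.73 and -2.32 within the lines.

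Akr1c18, a steroid-metabolising enzyme of the same list, was read in 16 of 33 and 1 of 13 cells and differed by 2.56, with 2.54 and 2.70 within the lines. The neurogliaform and Ivy list had 5 of its 12 members above the minimum, 4 higher and 2 past 2-fold. Its members Lamp5, Kit and Nos1 were read in 1, 3 and 3 of 33 Npy-expressing cells, and in 0, 0 and 2 Npy-lacking cells. Ndnf, a secreted protein that marks neurogliaform cells, was read in 21 of 33 and 8 of 13 cells and differed by 0.43. Id2, a transcriptional inhibitor, was read in 20 of 33 and 5 of 13 cells and differed by 1.09. Calb1, the calcium buffer calbindin, had medians of 222 CPM (0 to 2521) and 0.295 CPM (0 to 1582) and differed by 2.73, with 4.33 within the Htr3a and 1.17 within the Sst line. Hpca, the neuronal calcium sensor hippocalcin, differed by 2.09, but by 0.25 as a ratio of mean CPM. Of 15 calcium-binding protein genes, 14 were higher and 4 past 2-fold, against 70.2% and 22.5% over all genes. Only 4 were higher within both lines, and their list median of 0.26 was below the 0.40 over all genes. Without Htr3a line replicates 4 and 20 the list median was 0.10, against 0.16 over all genes, and 2 members were past 2-fold higher.

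Voltage-gated calcium channels had a median above that of all genes. Of 12 calcium channel genes above the minimum, 11 were higher and 6 past 2-fold higher, against 70.2% and 22.5% over all genes. Their median was 1.03 against 0.40 over all genes, 1.01 against 0.65 within the Htr3a line, 0.69 against 0.20 within the Sst line, and 0.90 against 0.16 without Htr3a line replicates 4 and 20. Cacna1c, the L-type pore subunit Cav1.2, was read in 24 of 33 Npy-expressing cells (72.7%, 54.5 to 86.7) and 2 of 13 Npy-lacking cells (15.4%, 1.92 to 45.4). Its median was 4.53 CPM (0 to 126) against 0 (0 to 15.01), and the difference of 2.24 exceeded the pooled SD of 2.21. The auxiliary subunits Cacnb4, Cacnb2 and Cacnb1 differed by 1.54, 1.49 and 1.38, and Cacnb4 by 0.68 without Htr3a line replicates 4 and 20. Cacna2d3, the one member with the other sign, was at -0.26.

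Potassium and HCN channels depended more on the line. Kcnq3, an M-current subunit, and Kcnd3, an A-type channel, differed by 2.15 and 2.09, each past 2-fold within both lines. The median of 23 potassium channel genes was 0.36, with 1.29 within the Htr3a and -0.31 within the Sst line. Hcn3 differed by 2.28 with both lines past 2-fold. Scn3b, a sodium channel beta subunit, differed by 2.01 with 3.07 and 1.06 within the lines.

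Among glutamate receptors, the AMPA and kainate families had several higher members. Of 16 ionotropic genes above the minimum, 13 were higher, 6 past 2-fold higher and 1 past 2-fold lower, with a median of 0.65. Gria1, Gria3 and Gria4, AMPA receptor subunits, differed by 1.49, 1.40 and 1.57. Leaving out Htr3a line replicate 20 brought Gria1 to 0.98, and leaving out Sst line replicate 16 brought Gria3 to 0.90. Gria4 was at 0.78 without Htr3a line replicates 4 and 20. Grik2, a kainate subunit, was read in 18 of 33 and 5 of 13 cells and differed by 1.92. Grm5, a metabotropic receptor that couples to phospholipase C, differed by 1.85 with 2.28 and 1.46 within the lines.

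Of 6 acetylcholine receptor genes above the minimum, 3 were higher and 3 lower, with a median of -0.33. Chrnb2, a nicotinic subunit, was read in all 46 cells and differed by 0.67, with 1.67 and -0.26 within the lines. Chrm3, a muscarinic receptor, was read in 18 of 33 and 10 of 13 cells and differed by -1.11, and by -0.67 without Htr3a line replicate 4. Chrna7, another nicotinic subunit, was read in 21 of 33 and 11 of 13 cells and had opposite signs within the lines (2.27 and -3.74). Htr1a, an inhibitory serotonin receptor, was read in 12 of 33 and 2 of 13 cells and differed by 1.45. Htr3a, the driver gene of 1 line and a member outside the naming rule, was read in 6 of 33 and 1 of 13 cells. The GABA receptor list had a median of 0.45 that was 1.58 within the Htr3a line and -0.47 within the Sst line.

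Activity-regulated genes included higher and lower members. Of 16 immediate early genes above the minimum, 12 were higher, 3 past 2-fold higher and 1 past 2-fold lower, with a median of 0.45 that was 0.01 without Htr3a line replicates 4 and 20. Nr4a1, an orphan nuclear receptor, was read in 29 of 33 and 6 of 13 cells and differed by 2.44 (2.76 and 2.03 within the lines). Ier2 differed by 2.71, with 0.38 within the Htr3a line (-1.68 without replicates 4 and 20) and 4.74 within the Sst line, and by -0.22 at the 100 CPM threshold. Fosb differed by 1.56 and Egr2 by -1.26. Fos itself, outside the naming rule, was read in every cell and differed by 0.68. CREB, the cAMP-responsive factor, is a known activator of peptide genes. Of 15 genes in the list of its pathway and late activity genes, 8 were higher and 7 lower, with a median of 0.32. Crem and the coactivator Crebbp differed by -1.45 and -1.12 (-0.60 and -0.61 without Htr3a line replicates 4 and 20, and -0.73 for Crebbp without replicate 20 alone), and Crtc2, another coactivator, by 1.30.

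The naming rule also takes the 15 highest and 15 lowest genes among those read in 12 or more cells, provided their direction was the same by summed CPM, by share of cells with reads and within both lines. These were chosen on this contrast and their values are a description. The rule was met by 3831 of 10004 genes, 3021 of them higher and 810 lower. The 15 highest ranged from 2.96 to 4.02, and 14 of them exceeded their pooled SD. Rbm6, an RNA-binding splicing factor, led at 4.02, with a median of 39.5 CPM (0 to 502) against 0 (0 to 6.49). Mtmr3, a phosphatase of membrane phosphoinositides (chromosome 11, 4480868 to 4594863, minus strand), followed at 3.86, with a median of 24.7 CPM (0 to 715) against 0 (0 to 1.47). Mtmr3 reached 10 CPM in 21 of 33 and 0 of 13 cells. S1pr3, a receptor for sphingosine 1-phosphate, was read in 21 of 33 cells (63.6%, 45.1 to 79.6) and 1 of 13 (7.69%, 0.195 to 36.0), and that 1 cell held 0.191 CPM.

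The other 12 of the 15 highest lay between 2.96 and 3.75. Exoc1, an exocyst subunit, was at 3.28, Rer1, which retrieves membrane proteins to the endoplasmic reticulum, at 2.99 and Atg9a, a lipid scramblase of autophagy, at 2.99. Ptk2, the focal adhesion kinase, was at 3.75, Ralgds, an activator of Ral GTPases, at 3.06, and Trmt10c, a subunit of mitochondrial ribonuclease P, at 3.18. The remainder were Txndc11 (3.29), Cep170b (3.20), Slc35c2 (3.13), St7 (3.06), Fbxo33 (2.996) and Rnf128 (2.96). The Cep170b difference was 5.75 within the Htr3a line and 0.77 within the Sst line.

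The 15 lowest ranged from -3.37 to -2.26, and 2 of them, Ppp1r21 and Tmem241, exceeded their pooled SD. Ppp1r21, an endosomal protein, had a median of 0.765 CPM (0 to 129) in Npy-expressing and 85.5 CPM (0 to 562) in Npy-lacking cells. It was read in 19 of 33 and 12 of 13 cells, and its difference was -2.81 and -3.90 within the lines. Pnoc came next, followed by Tmem241 (-2.97), which was read in 9 of 33 and 11 of 13 cells. Eya1, a phosphatase and transcriptional coactivator, was at -2.81 and was read in 20 of 33 and 12 of 13 cells. Gucy1a3, a subunit of the nitric oxide receptor guanylate cyclase, was at -2.34, Ythdf3, a reader of methylated RNA, at -2.31, and Sec61a1, the pore of the endoplasmic reticulum translocon, at -2.38. The others were Sdccag8 (-2.78), Mal2 (-2.76), Slc2a6 (-2.62), Zfp655 (-2.50), Coa5 (-2.49), Trim13 (-2.47), Arid4b (-2.41) and Zfp704 (-2.26). Htr3a line replicate 20 held 89.1% of the summed Zfp704 CPM of the Npy-lacking cells. The Arid4b difference within the Htr3a line was -2.10, and -0.22 without Htr3a line replicates 4 and 20.

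Likeness to Npy over all 46 cells, by Spearman's rho of log2(CPM + 1), gave a partly different set. It was highest for Mtmr3 (0.58) and Zfpm2 (0.57), a cofactor of GATA transcription factors. Zfpm2 was read in 15 of 33 Npy-expressing cells (45.5%, 28.1 to 63.6) and in 0 of 13 Npy-lacking cells, a count of 0 that again allows a share of up to 23.1%. It reached 657 CPM in Htr3a line replicate 6, which held 42.8% of its summed CPM. Next came Mpped2 (0.51), Cbln4 (0.50), a secreted synaptic organiser, Pde1c (0.47), a calmodulin-dependent phosphodiesterase, Magi2 (0.47), a synaptic scaffold, Ctcf (0.47), the insulator-binding protein, and Marcks (0.45), a substrate of protein kinase C. Cbln4 was read in 15 of 33 and 2 of 13 cells, with highest levels of 1308 and 136 CPM. The most negative values were those of Pid1 (-0.63), Pnoc (-0.61), Bckdk (-0.60), the kinase that restrains branched-chain amino acid breakdown, and Tmem241 (-0.54). Pid1 and Bckdk differed by -1.99 and -1.80 between the sides, but by 0.04 and 0.70 within the Htr3a line.

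**Figure D5:**
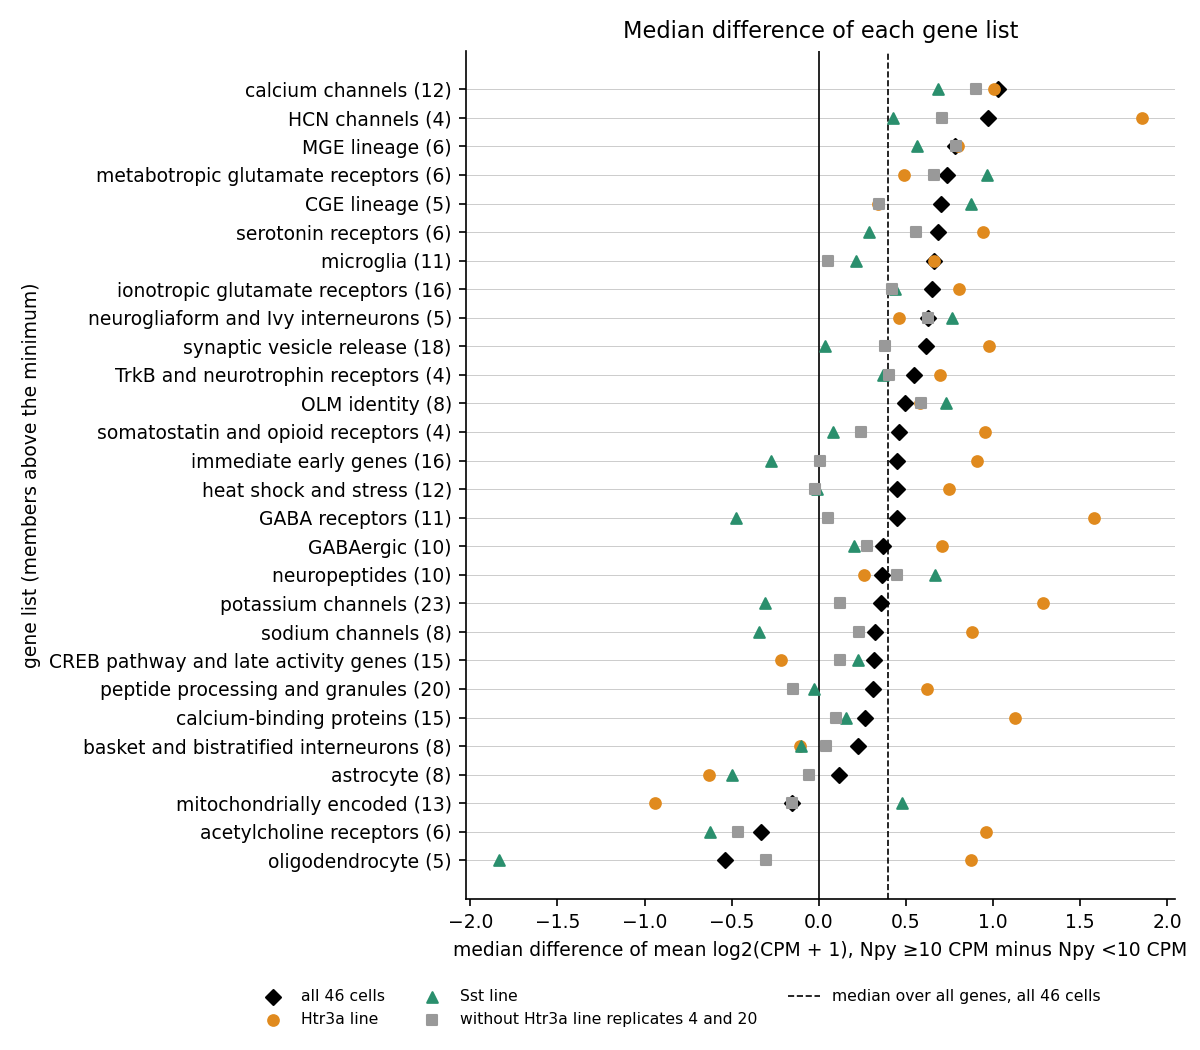
Median difference of each gene list with at least 4 members above the minimum (number in brackets), Npy-expressing minus Npy-lacking, over all 46 cells, within each line and without Htr3a line replicates 4 and 20. The dashed line is the median of all genes, 0.40; calcium channels lie to its right at 1.03, and many lists lie further right within the Htr3a line than within the Sst line.

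Transcripts of other cell types were present on both sides. The summed level of 11 microglial genes had a median of 792 CPM (0.0536 to 11267) in Npy-expressing and 235 CPM (0 to 9810) in Npy-lacking cells, and the mean summed levels were 1701 and 2247 CPM. Of the 11 genes, 10 were higher, 1 past 2-fold, with a median difference of 0.66. Without Htr3a line replicates 4 and 20 the Npy-lacking median was 529 CPM, the median difference was 0.05 and 0 genes were past 2-fold higher. Every microglial gene was read on both sides, with Tmem119 in 11 and 3 cells and C1qb in 25 and 8. The summed oligodendrocyte medians were 165 CPM (0.144 to 7114) and 159 CPM (0.844 to 13314). Their mean summed levels were 620 and 1889 CPM, the latter 1012 CPM without Htr3a line replicates 4 and 20. Of 5 oligodendrocyte genes above the minimum, 2 were higher and 3 lower, 1 of these past 2-fold. Their median difference was -0.54, with 0.88 within the Htr3a and -1.84 within the Sst line. The summed astrocyte medians were 89.5 CPM (0.239 to 1049) and 301 CPM (26.02 to 1778). Of 8 astrocyte genes above the minimum, 4 were higher and 4 lower, 2 of these past 2-fold, with a median of 0.11. The astrocyte enzyme Aldoc differed by -2.13 and the glutamate transporter Slc1a2 by -1.51. The Slc1a2 difference was -0.91 without Htr3a line replicate 4 and -0.62 without replicates 4 and 20. The 4 higher members were Aldh1l1 (0.55), Slc1a3 (0.30), Glul (0.29) and S100b (0.24). Aqp4 and Gja1, membrane channels that define astrocytes, were read in 1 and 1 and in 2 and 1 cells, and the oligodendrocyte genes Cldn11 and Opalin in none. Slc17a7, which loads glutamate into synaptic vesicles, was read in 2 and 0 cells. Summed markers of oligodendrocyte precursors had medians of 0 on both sides, those of vessels and blood 0.0601 CPM (0 to 10918, the highest in Htr3a line replicate 10) and 0 CPM (0 to 146), and those of glutamatergic neurons 38.98 and 59.3 CPM. The part of these transcripts in the differences above was not tested. Of 13 mitochondrially encoded genes, 8 were lower in Npy-expressing cells, with a median of -0.15 that was -0.94 within the Htr3a and 0.48 within the Sst line.

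Some named genes share sequence with others, and reads from overlapping genes could not be separated here. Of the 31-base words of a gene's transcripts, 32.4% occurred in transcripts of other genes for Atg9a, whose exons overlap those of Ankzf1. This share was 28.7% for Trim13, 17.1% for Nmb, 16.9% for Zfp704, 16.4% for Hcn3, 15.5% for Cacnb4, 15.05% for Chrnb2, 12.3% for Syt4, 10.9% for Penk, 10.8% for Rbm6, 8.999% for St7 and 8.12% for Nr2f2. The values of these genes are less certain for that reason.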

How the data were processed

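Raw read counts per gene of 46 single cells were deposited by the authors, by symbol (22800 genes, used here) and by Ensembl identifier (22880). Per the submitters' processing notes, GRCm38, Trimmomatic, STAR and featureCounts were used. Their versions, the annotation and the use of strand were not given in the sources used here. Molecular identifiers are not mentioned either, so copies of 1 molecule may be counted repeatedly. The deposited normalized table is a signal equal to the count divided by 1 factor per cell (0.144 to 2.09), within 0.1% for 100% of values. In the raw counts by symbol, the driver line given for each cell matched the label for 46 of 46 cells, and 0 of 1035 library pairs were identical.

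Counts were scaled to 1000000 per cell (CPM) and to log2(CPM + 1). Each cell weighs equally in a mean. The members, the 33 gene lists and the naming rule were chosen with earlier results of these data known. Named were all measured members of the neuropeptide Y, neuropeptide and OLM lists, up to 4 of each other list with the largest differences and reads in at least 12 cells, the 15 highest and 15 lowest genes, and the 8 genes most like and 4 least like Npy. Xist, Tsix, Ddx3y, Eif2s3y, Kdm5d, Uty, mitochondrial genes and predicted genes were left out of the last 3 groups. A few genes named by this rule are left out of the text. Gene positions are from GENCODE M21 (21906 of 22800 symbols matched).

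Alternatives were other scalings (edgeR 4.0.16 TMMwsp, DESeq2 1.42.0 poscounts, the deposited table, totals without Npy reads), a pseudocount of 10, thinning to 3000000 reads, Npy thresholds of 1 and 100 CPM, each line alone, the mean of both lines, adjustment for line and genes detected, the ratio of mean CPM per side plus 1, other filters and detection minimums, the Ensembl table, and each cell left out. Leaving out Htr3a line replicates 4 and 20 was added after seeing the data. Doublets were not called, since each cell was drawn singly. The calculations were tested on simulated data.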

Additional observations from a re-analysis of the deposited data

How the results depend on the processing

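The counts of genes past 2-fold depended on the scale and on the cells included, while more genes were higher than lower under every setting tried. A pseudocount of 10 left 529 genes higher and 90 lower, a threshold of 100 CPM gave 1074 and 901, the Htr3a line alone 4217 and 855, and adjustment for line and genes detected 1561 and 908. The lower count was 709 with poscounts factors, 1700 within the Sst line, 1096 by the ratio of mean CPM and 889 without Htr3a line replicates 4 and 20. Leaving out 1 cell in turn gave 2090 to 2954 genes higher and 400 to 683 lower, median differences of 0.26 to 0.48, and 965 to 1409 more genes detected in Npy-expressing cells. At the threshold of 100 CPM the difference in genes detected was -37.5. Among 100 named genes past 2-fold, signs turned within the Htr3a line for Bckdk (0.70), Nppc (-0.16) and Pid1 (0.045), and within the Sst line for Gabbr1 (-0.29), Gabrb2 (-0.33), Gabrg1 (-0.70), Hpcal4 (-0.41) and Rims2 (-0.60). They turned at 100 CPM for Cpd (-0.35), Dlx2 (-0.18), Gabrb2 (-0.32), Ier2 (-0.22) and Necab1 (-0.33), and by the ratio of mean CPM for Dlx2 (-0.054) and Lhx6 (-0.11). Without Htr3a line replicates 4 and 20, 21 of the 100 were no longer past 2-fold and 0 turned sign. Of 62 named genes with a smaller difference, 42 turned sign in at least 1 alternative, among them 14 within the Htr3a line, 16 within the Sst line, 16 at 100 CPM and 16 by the ratio of mean CPM. The causes were not tested. The medians of calcium channels, neuropeptides and MGE genes kept their sign in all 16 alternatives other than leaving out 1 cell. So did those of several other lists, among them serotonin receptors, ionotropic and metabotropic glutamate receptors, calcium-binding proteins and synaptic vesicle release. The median over all genes was also positive throughout, from 0.044 at 100 CPM to 0.65 within the Htr3a line. A kept positive sign therefore does not set these lists apart from the shift of all genes. No paired analysis was possible because no test was made and the replicate numbers follow accession order. With 13 Npy-lacking cells, a gene missed in all of them could still be read in up to 23.1% of such cells (3 counts over 13 cells).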
